A study of Homo sapiens with 27 samples.

Results

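RNA-seq of T47D cells was used to ask which genes responded alike to 3 truncation mutants of GATA3. T47D is a human luminal breast cancer cell line. The comparison pooled 9 mutant libraries against 3 control libraries, 12 of the 27 samples of the series. Mutant libraries came from cells with the X308 splice site deletion (Splice del), the C321 frameshift (C321fs) or the A333 frameshift (A333fs), with 3 libraries each, and the control was cells with the empty pHAGE lentiviral vector. Every line kept its own wild-type GATA3, carried a lentiviral insertion, was selected with puromycin and was kept at a low passage. The mutants were exogenous and carried a Ty1 epitope tag. Each line was a single stable pool of infected cells, so 3 mutant pools were set against 1 control pool, and whatever else set the control pool apart cannot be told apart from the mutants. Nothing says that the 3 libraries of a line came from separate infections, so p-values measure the spread between libraries.

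A gene was counted in the common response by 3 conditions. It was called in the pooled contrast, which set the mean of the 3 mutant lines against the control by edgeR's quasi-likelihood test (over 1.5-fold, at a p under 0.01 after Benjamini-Hochberg adjustment). All 9 mutant libraries lay beyond all 3 control libraries. The fold changes of the 3 mutant lines, fitted line by line, lay within a range of 1.5-fold. Of 14789 tested genes, 363 met the conditions upwards and 343 downwards. These are 2.45% and 2.32% of the tested genes.

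GATA3 is a zinc finger transcription factor that binds the letters GATA and maintains the luminal fate of the mammary gland. Its C-terminal zinc finger recognizes the motif, and the 3 mutants lose that finger wholly or in part. It works beside the estrogen receptor and FOXA1 in luminal cells and is one of the genes most often mutated in luminal breast cancer.

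Libraries held 27872208 to 36788024 counted fragments. Levels are given in counts-per-million units (CPM), scaled by the trimmed mean of M values (TMM), whose factors were 0.884 to 0.943 in the control and 1.01 to 1.05 in the mutants. GATA3 itself (chr10:8054704-8075201, plus strand, hg38) was read at 1247, 1339.7 and 1257 CPM in the control and from 962 to 1155 CPM with a median of 1028 in the mutants. The level counts the gene and any matching part of the introduced sequence together. It was below the control in all 9 mutant libraries, as were 19.3% of tested genes. The change was -0.29 ± 0.04 on the log2 scale (edgeR adjusted p = 2.26e-05). With the trend over GC content and exon length removed, as described below, it was -0.16 (edgeR adjusted p = 0.000622). Both values were under the fold change limit in size, so the count level gave no sign by which to check the mutant labels. The luminal markers EPCAM, CDH1, KRT8, KRT18, KRT19, ESR1 and FOXA1 were read at 195 CPM or more in every library. One library stood apart from its line: C321fs replicate 1 differed from the other 2 by 15.3 and 26.8 in chi-square per gene, against 2.12 to 10.0 for all other pairs of the same line.

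The promoters of some common genes are shown first, because GATA3 and the interferon-activated factors act through short DNA motifs. Each line below holds the 160 bases upstream of the RefSeq start of the gene, 5′ to 3′ on the strand of the gene, in GRCh38.p14. The annotation behind the counts starts most of these genes inside the window, and IFIT3 before it. Capitals mark the core of the interferon-stimulated response element in IFIT3, IFIT5, IFITM3 and PARP14. The core was searched, on both strands, as a pair of GAAA words with 2 bases between them. In AGR2 and CYP2S1 capitals mark a full GATA motif, searched on both strands as AGATAA or TGATAA or AGATAG or TGATAG.
IFIT3: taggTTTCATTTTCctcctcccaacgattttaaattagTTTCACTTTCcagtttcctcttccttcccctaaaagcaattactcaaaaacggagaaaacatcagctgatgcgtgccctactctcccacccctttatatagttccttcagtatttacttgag
IFIT5: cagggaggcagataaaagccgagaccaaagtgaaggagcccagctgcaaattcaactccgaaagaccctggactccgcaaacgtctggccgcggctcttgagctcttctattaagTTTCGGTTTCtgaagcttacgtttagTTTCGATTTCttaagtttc
IFITM3: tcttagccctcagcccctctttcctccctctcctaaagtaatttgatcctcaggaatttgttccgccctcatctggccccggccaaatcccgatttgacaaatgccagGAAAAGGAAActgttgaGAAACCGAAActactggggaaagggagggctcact
PARP14: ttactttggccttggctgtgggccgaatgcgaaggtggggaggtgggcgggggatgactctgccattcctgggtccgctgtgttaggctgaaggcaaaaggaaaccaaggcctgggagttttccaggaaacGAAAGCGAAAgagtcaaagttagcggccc
AGR2: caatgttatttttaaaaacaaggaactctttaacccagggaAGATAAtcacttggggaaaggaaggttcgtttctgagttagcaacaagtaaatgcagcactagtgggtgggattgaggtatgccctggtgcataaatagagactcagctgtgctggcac
CYP2S1: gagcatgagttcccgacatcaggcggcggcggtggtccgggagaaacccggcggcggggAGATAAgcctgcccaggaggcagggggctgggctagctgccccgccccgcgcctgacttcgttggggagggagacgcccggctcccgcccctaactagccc

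The windows lie at chr10:89327837-89327996 (plus strand), chr10:89414408-89414567 (plus), chr11:320861-321020 (minus), chr3:122680679-122680838 (plus), chr7:16805000-16805159 (minus) and chr19:41193059-41193218 (plus). IFIT3, IFIT5 and IFITM3 held 2 interferon elements each and PARP14 held 1. The window of IFIT5 also held AGATAA, left in lower case, 151 bases before the start. AGR2, which was higher in the mutants, and CYP2S1, which was lower, each held 1 GATA motif. Every window shown holds a marked motif, so these genes do not show how frequent the motifs are among common genes. In the longer promoters searched below, JUP also held a full GATA motif. MSX2, TENM3, RNF223, EFNA5, SCUBE2 and SMAD3, all common genes, held no full GATA motif there. The shares over all common genes with a matched promoter are given below.

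The adjusted p was below 0.01 in 49.4% of tested genes, and 8.28% also passed the fold change limit. The pooled contrast called 754 genes up (5.1% of those tested) and 470 down (3.18%). In 2315 genes (15.7%) all 9 mutant libraries lay above the control, and in 2860 (19.3%) below, together 35% of the genes. Of the called genes, 556 up and 398 down also had libraries that did not overlap, and the limit on the range among mutants then left 363 and 343. Common genes changed by a median of 0.74 on the log2 scale upwards and 0.65 in size downwards. The up-regulated genes were read at low levels (median 4.05 CPM) and the down-regulated genes at higher ones (79.6 CPM), where the median of all tested genes was 24.8 CPM. In such bulk RNA fewer cells of a kind and less RNA per cell cannot be told apart. The counts depended on single libraries and lines. Without control replicate 2 the common down-regulated genes numbered 194, and without control replicate 1 they numbered 551. Leaving out the C321fs line gave 630 up and 628 down, and leaving out A333fs gave 589 up. The balance of up and down depended on the scaling: 61.6% of calls were up by TMM, 85.6% by upper-quartile scaling and 93.7% by total counts, which left 111 and 51 common down-regulated genes.

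Fold changes followed the GC content of the exons. GC content is the share of G and C among the bases of a gene's exons, and libraries can differ in how well they hold GC-rich fragments. The slope of log2 CPM over GC content was 0.139 ± 0.0421 per 10 percentage points in the control (SD, n = 3) and -0.108 ± 0.0683 in the mutants (SD, n = 9). Control libraries had slopes of 0.107 to 0.187 and the mutant libraries of -0.216 to 0.0130, so the groups did not overlap. The difference was -0.247 per 10 points (exact permutation test over the 220 choices of 3 libraries, two-sided p = 0.00909, the smallest these libraries can give). The test takes each library as a unit, although the control libraries came from 1 pool and the mutant libraries from 3. Its p therefore does not measure the spread between pools. C321fs replicate 1 was the mutant library closest to the control.

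**Figure D1:**
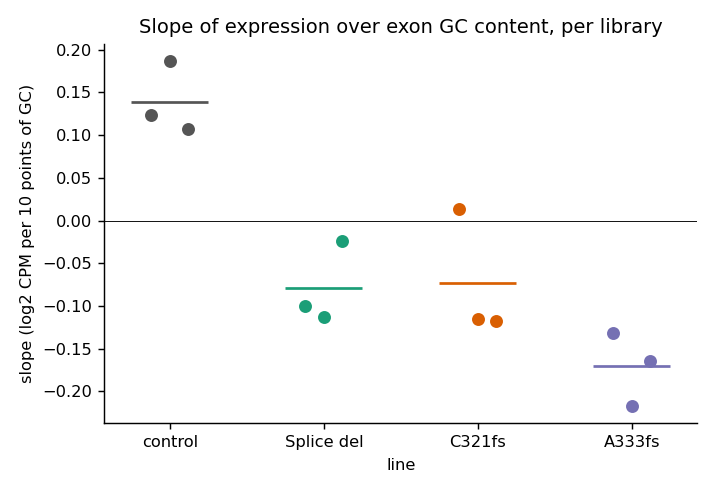
Slope of log2 CPM over exon GC content in each of the 12 libraries (y axis, per 10 percentage points of GC) by line (x axis), with a bar at the mean of each line. The 3 control libraries lie at 0.107 to 0.187 and the 9 mutant libraries at -0.216 to 0.0130.

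The genes were cut into 10 bins of equal size by GC. In the bin lowest in GC the median pooled change was 0.32 on the log2 scale, and in the bin highest in GC it was -0.35. The lowest bin held 91 common up-regulated genes and 0 down-regulated ones. In the highest bin the counts were 4 and 115. Common up-regulated genes had a median GC content of 42.4% and common down-regulated genes of 60.6%, against 49.6% for all tested genes. Spearman's rho between the pooled change and GC content was -0.62 across the 14789 genes, which are not independent replicates and share the 12 libraries.

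The comparison was therefore repeated with each library's trend over GC content and exon length taken out. The median change was then between -0.03 and 0.00 in every bin of GC content, and rho was 0.00. This fit called 595 genes up (4.02%) and 127 down (0.859%), of which 219 (1.48%) and 60 (0.406%) met the conditions of the common response. Of the 363 common up-regulated genes, 129 were common in both fits (0.872% of tested genes), and of the 343 down-regulated genes, 34 were (0.23%). Since all 9 mutant libraries lie on one side of the control in slope, a real change that follows GC content and a difference in library GC cannot be told apart, and removing the trend takes out both.

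**Figure D2:**
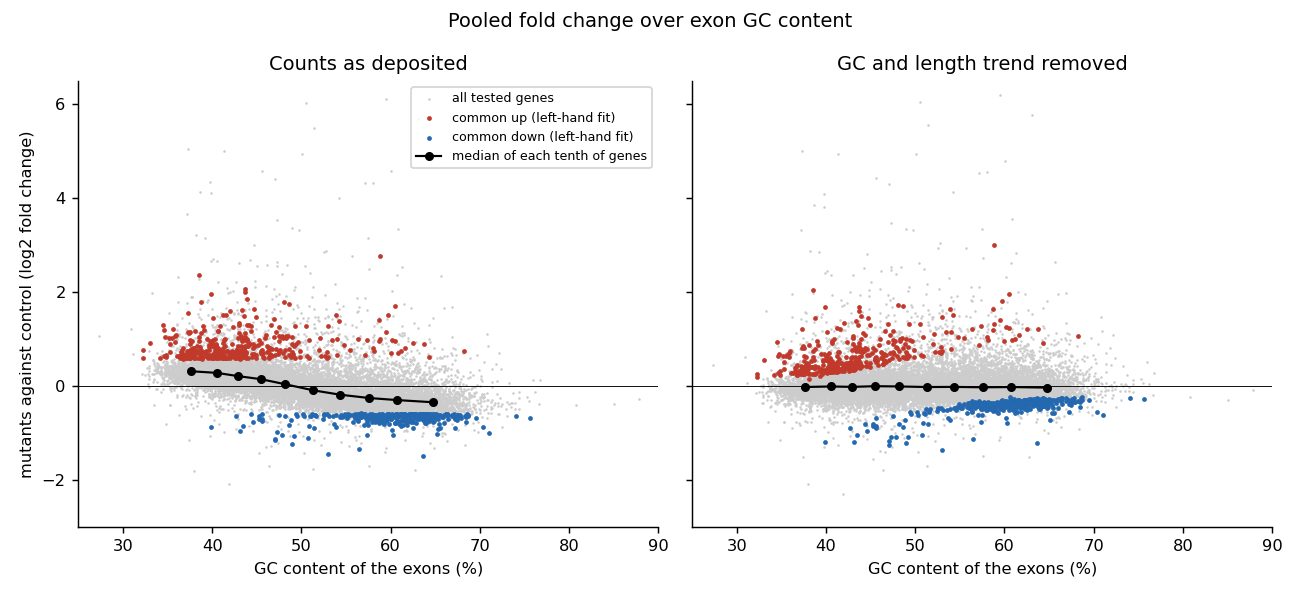
Pooled log2 fold change of mutants against control (y axis) over exon GC content (x axis, percent) for 14789 genes, from the deposited counts (left) and after removal of the GC and length trend (right). Red and blue points are the 363 up- and 343 down-regulated common genes of the left-hand fit, and the black line joins the medians of 10 GC bins, which run from 0.32 to -0.35 on the left and stay between -0.03 and 0.00 on the right.

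Genes of average GC were also looked at without the correction. Their changes still depend on the scaling, and any trend over exon length remains in them. Of the 1908 genes within 2 percentage points of the median GC content, 31 were common up (1.62%) and 19 common down (0.996%), and the median change over the 1908 genes was -0.02. When the trend was removed as well, 26 of the 31 and 9 of the 19 stayed common. By adjusted p, SCUBE2, MATN2 and SMAD3 led the increases of this band and FKBP4, RPSA and CYR61 the decreases.

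SCUBE2 (chr11:9019500-9091603, minus strand) encodes a secreted and membrane-attached protein that helps to release Hedgehog ligands. It was read at 12.2, 11.6 and 10.1 CPM in the control and from 21.6 to 33.3 CPM with a median of 27.1 in the mutants, without overlap. The pooled change was 1.28 ± 0.07 (SE), a 2.43-fold increase (edgeR adjusted p = 2.78e-09), and 1.31 with the trend removed. MATN2 (chr8:97869083-98036718, plus strand), a matrilin of the extracellular matrix, rose from 11.8, 11.5 and 12.8 CPM to a range from 21.7 to 29.7 CPM with a median of 25. Its change was 1.06 ± 0.06 (SE, adjusted p = 3.23e-09) and 1.00 with the trend removed. SMAD3 (chr15:67065857-67195195, plus strand) transmits TGF-beta and activin signals to the nucleus. Its libraries held 9.23, 8.85 and 7.92 CPM in the control and from 14.7 to 21.1 CPM with a median of 15.8 in the mutants, a change of 0.98 ± 0.07 (SE, adjusted p = 4.89e-08). The SMAD3 value was 1.04 with the trend removed.

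The largest common increases among genes of at least 1 CPM in the mean of the control or of the mutants were SNORD14D, ZNF252P-AS1, IFIT3, STARD4-AS1, RNF139-AS1, SEMA3A, MEX3B, IFIT2, RBM5-AS1 and FSD2, with changes of 1.5 to 2.06 on the log2 scale. All 10 were low, with control means of 0.302 to 1.61 CPM. SNORD14D, SEMA3A, STARD4-AS1, ZNF252P-AS1, FSD2 and RBM5-AS1 had control means under 1 CPM and met this minimum only through the mutants. Removing the GC and length trend left all 10 called, at 1.22 to 1.71, and 8 of them common. IFIT3 and RBM5-AS1 were the other two.

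SNORD14D (chr11:123058909-123058995, minus strand), a small nucleolar RNA within the HSPA8 gene, was read at 0.475, 0.257 and 0.174 CPM in the control and from 1.03 to 1.68 CPM with a median of 1.22 in the mutants. Its change was 2.06 ± 0.25 (SE, edgeR adjusted p = 4.94e-06). RNF139-AS1 (chr8:124462497-124474563, minus strand) is a long noncoding RNA antisense to the ubiquitin ligase gene RNF139. It had 1.49, 1.73 and 1.6 CPM in the control and from 4.01 to 5.91 CPM with a median of 4.81 in the mutants, and its change of 1.59 ± 0.13 (SE, adjusted p = 1.30e-07) was 1.34 with the trend removed. The counting ignored strand, and STARD4-AS1, RBM5-AS1 and ZNF252P-AS1 overlap exons of STARD4, RBM5 and ZNF252P, so their reads cannot be told apart from those of the partner where they overlap. FSD2 overlaps SNHG21 and SCARNA15 in the same way, and of the decreases named below TEX14 overlaps SEPT4-AS1.

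MEX3B (chr15:82041778-82046143, minus strand), an RNA-binding protein, had 0.78, 1.31 and 1.15 CPM in the control and from 2.36 to 3.95 CPM with a median of 3.09 in the mutants. It was the one gene of the 10 whose exons were richer in GC than average by more than 2 points (53.9%), and its change went from 1.52 ± 0.16 (SE) to 1.65 when the trend was removed. SEMA3A (chr7:83958343-84194901, minus strand), a secreted guidance cue of the semaphorin family, was read at 0.543, 0.385 and 0.278 CPM against a range from 0.842 to 1.45 CPM with a median of 1.33. The line-by-line changes of SEMA3A were Splice del 1.74, C321fs 1.18, A333fs 1.77, just inside the range limit.

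The largest common decreases included BCYRN1, MSX2, TENM3, CYP2S1, C1orf64, EGLN2, RNF223, TEX14 and EFNA5, with changes of -1.45 to -0.96 on the log2 scale. Removal of the trend left 8 of these 9 common, and EGLN2, which shares exons with the readthrough RAB4B-EGLN2, lost its call (-0.72, adjusted p = 0.0155).

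MSX2 (chr5:174724572-174730899, plus strand), a homeobox transcription factor downstream of BMP signals, had the smallest adjusted p of all common genes. It was read at 83.8, 89.0 and 80.0 CPM in the control and from 34.4 to 43.0 CPM with a median of 37.9 in the mutants, so the highest mutant library was far below the lowest control library. Its change was -1.15 ± 0.05 (SE), a 2.22-fold decrease (edgeR adjusted p = 7.55e-11). The 3 lines gave Splice del -1.16, C321fs -1.06, A333fs -1.22, and the pooled value was -1.25 with the trend removed.

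EFNA5 (chr5:107376889-107670895, minus strand), a membrane-bound ligand of Eph receptors, had 25.8, 26.4 and 26.3 CPM in the control and from 11 to 14.8 CPM with a median of 13.3 in the mutants. Its exons hold less GC than the average gene (43.2%), and its change went from -0.96 ± 0.06 (SE, adjusted p = 1.16e-08) to -1.20 when the trend was removed. TENM3 (chr4:182323984-182803024, plus strand), a teneurin of the cell surface, fell from 109.7, 104 and 118 CPM to a range from 40.1 to 62.4 CPM with a median of 51.3. The change of TENM3 was -1.13 ± 0.07 (SE, adjusted p = 6.10e-09), and the lines differed among themselves within the limit (Splice del -1.42, C321fs -1.08, A333fs -0.90).

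BCYRN1 (chr2:47335315-47335514, plus strand) is a small cytoplasmic RNA with many near-identical copies in the genome, so its count is uncertain. It had 59.4, 73.8 and 73.0 CPM in the control and from 19.1 to 32.3 CPM with a median of 25.7 in the mutants (-1.45 ± 0.10 (SE), adjusted p = 2.23e-08). CYP2S1 (chr19:41193207-41207539, plus strand), a cytochrome P450, was read at 27.4, 31.1 and 30.6 CPM and from 12.0 to 16.6 CPM with a median of 14.5. Its change of -1.04 ± 0.06 (SE, adjusted p = 1.06e-08) was -0.78 with the trend removed.

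**Figure D3:**
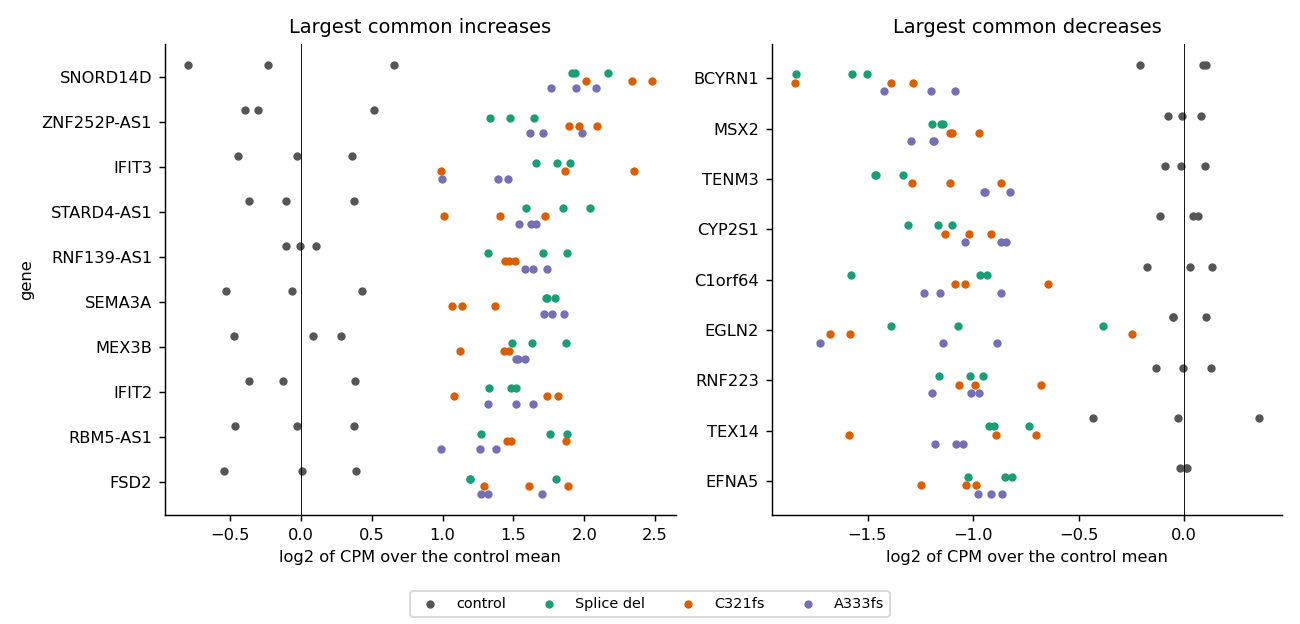
The 10 largest common increases (left) and 9 of the 10 largest decreases (right), each library as a point at the log2 of its CPM over the control mean (x axis) by gene (y axis), colored by line. The 9 mutant libraries of each gene lie on one side of its 3 control libraries. MSX2 mutants sit close together at 34.4 to 43.0 CPM against 80.0 to 89.0 in the control.

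Genes of the type I interferon response are induced when cells sense interferon, and many encode sensors of viral RNA or inhibitors of virus growth. Of 41 tested genes of this list, 21 were called up (51.2%) and 0 down, against 5.1% and 3.18% of all genes. The median change of the list was 0.83 on the log2 scale, and 0.76 with the trend removed, where the medians of all tested genes were 0.02 and -0.02. In the fit without the trend 19 were called up and 0 down. Only 8 of the 21 (19.5% of the list, against 2.45%) met the conditions of the common response (IFIT2, IFIT3, IFIT5, IFITM3, DDX58, IFIH1, PARP14 and LGALS3BP), and 5 of those did so in both fits. The summed level of the list was 784 to 805 CPM in the control and 986 to 1606 CPM in the mutants, here scaled by library totals alone.

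The list's genes ran lower in A333fs than in the other two lines. The change was smallest in A333fs for 38 of the 41 genes and largest in C321fs for 31. The line medians were 0.96 (Splice del), 0.91 (C321fs) and 0.48 (A333fs). These values share the same 3 control libraries. The libraries of C321fs also spread widely. In replicates 1, 2 and 3 IFIT3 was read at 2.25, 4.13 and 5.80 CPM and PARP14 at 30.4, 39.8 and 48.2 CPM. For these genes C321fs replicate 1 lay below the A333fs libraries (2.26 to 3.13 and 36.2 to 41.5 CPM). For IFIT5 and OASL it lay above them (8.31 against 6.96 to 7.18 CPM and 3.53 against 3.17 to 3.35 CPM). An F-test among the 3 mutant lines had an adjusted p below 0.01 for 15 of the 41 genes, where 19.5% of all genes did. Without the A333fs line 23 of the 41 genes were common in place of 8. Over all genes 589 of 14639 were then common up, in place of 363 of 14789.

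IFIT2 (chr10:89301949-89309276, plus strand), an interferon-induced RNA-binding protein, had nearly the same change in the 3 lines (Splice del 1.45, C321fs 1.57, A333fs 1.5). It was read at 0.95, 1.12 and 1.6 CPM in the control and from 2.59 to 4.30 CPM with a median of 3.51 in the mutants, a change of 1.51 ± 0.19 (SE, edgeR adjusted p = 5.34e-06). Its neighbour IFIT3 (chr10:89327819-89340968, plus strand) had 1.46, 0.834 and 1.11 CPM and from 2.25 to 5.80 CPM with a median of 3.59, with a change of 1.64 ± 0.26 (SE, adjusted p = 6.06e-05). After removal of the trend IFIT3 kept its call at 1.45 but no longer met the other conditions of the common response.

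IFITM3 (chr11:319673-320914, minus strand), a membrane protein that blocks the entry of viruses, was read at 4.34, 4.01 and 3.58 CPM in the control and from 6.11 to 9.53 CPM with a median of 8.29 in the mutants. Its exons are rich in GC (57.3%), and its change was 0.99 ± 0.11 (SE, adjusted p = 1.85e-06) and 1.28 with the trend removed. PARP14 (chr3:122680825-122730840, plus strand), an ADP-ribosyltransferase, had 21.3, 19.6 and 22.3 CPM against a range from 30.4 to 48.2 CPM with a median of 41.5. The changes of PARP14 were 0.95 ± 0.10 (SE, adjusted p = 1.55e-06) and 0.76. DDX58 and IFIH1 encode the RNA sensors RIG-I and MDA5, and their pooled changes of 0.87 and 0.64 became 0.56 and 0.40 with the trend removed, below the fold change limit. OASL, which resembles the oligoadenylate synthetases, lay just outside the range limit (Splice del 0.92, C321fs 1.34, A333fs 0.75). Called genes well outside it included IFI27 (Splice del 1.82, C321fs 3.07, A333fs 0.77) and IFI6 (Splice del 1.63, C321fs 2.12, A333fs 0.97).

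**Figure D4:**
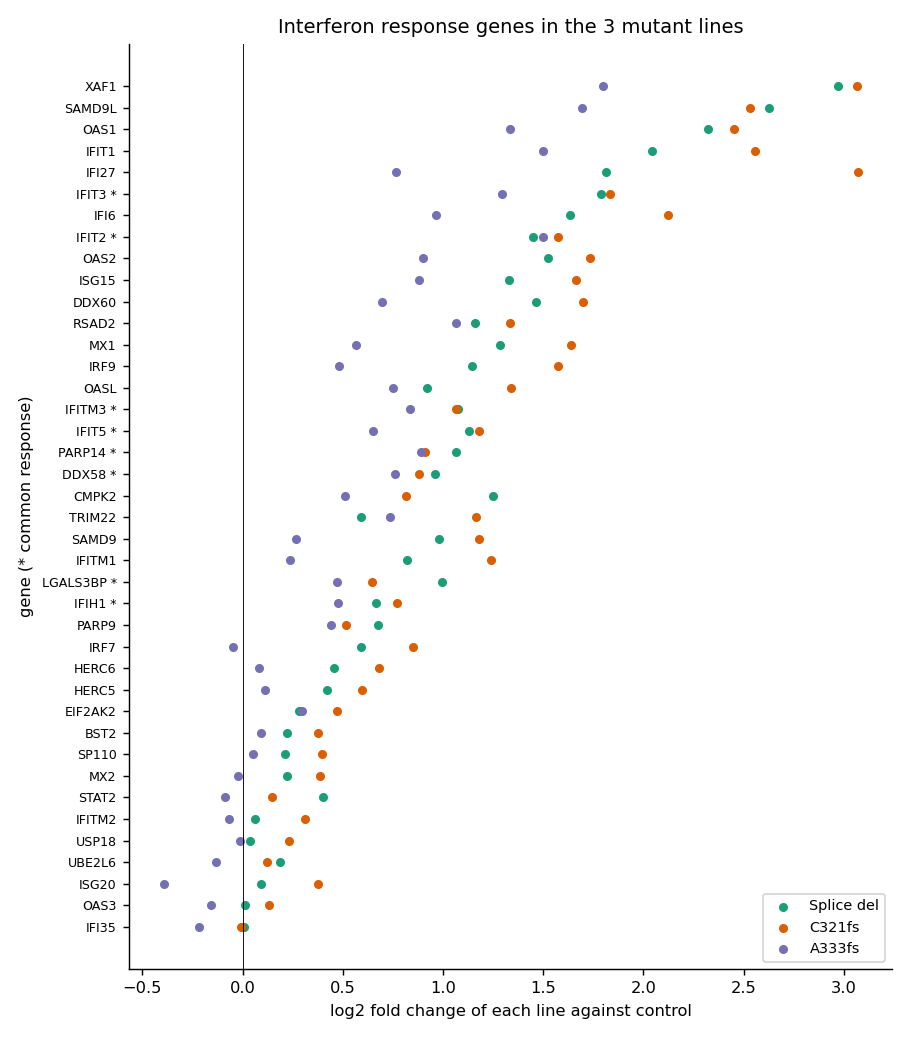
Log2 fold change of each mutant line against the shared control (x axis) for 40 of the 41 tested interferon response genes (y axis), colored by line, with common response genes starred. A333fs is the lowest of the 3 lines in 37 of the genes drawn, and IFIT2 has 1.45, 1.57 and 1.5 in Splice del, C321fs and A333fs.

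Genes for the making of ribosomes ran the other way. Cytosolic ribosomal proteins form the ribosome's 2 subunits, and a separate set of nucleolar factors cuts and folds ribosomal RNA. Of 77 tested ribosomal protein genes 16 were called down (20.8%, against 3.18% of all genes) and 0 up, and all 16 were common (20.8%, against 2.32%). The list's median change was -0.37, and -0.25 with the trend removed, which left 5 called and 4 common in both fits (RPL27, RPS3, RPS29 and RPSA). In 45 of the 77 genes (58.4%) all 9 mutant libraries lay below the control, where 19.3% of all genes did. Splice del had the lowest value of the 3 lines in all 77 genes. Without the Splice del line 5 genes were common, and without control replicate 2 there were 10. Over all genes 289 and 194 were then common down, in place of 343. Upper-quartile scaling called 5 and total counts 2, with medians still below 0. Over all genes these scalings called 189 and 108 down, in place of 470. Ribosomal protein genes have many pseudogene copies, so single counts are uncertain.

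RPSA (chr3:39406689-39412541, plus strand), a protein of the small subunit that also serves as a laminin receptor, had 1598, 1639 and 1534 CPM in the control and from 851 to 1232 CPM with a median of 1053 in the mutants. Its change was -0.63 ± 0.05 (SE, edgeR adjusted p = 1.21e-07), and -0.60 with the trend removed. RPS3 (chr11:75399491-75422301, plus strand) was read at 2763, 3009.7 and 2712 CPM and from 1568 to 2181 CPM with a median of 1962. The change of RPS3 was -0.60 ± 0.05 (SE, adjusted p = 3.52e-07) and, with exons of 44.4% GC, became -0.80 with the trend removed. RPLP0, of the stalk of the large subunit, changed by -0.66 and lost its call with the trend removed (-0.47).

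Of 48 tested genes for ribosomal RNA processing and ribosome biogenesis 7 were called down (14.6%, against 3.18% of all genes) and 0 up, all 7 common (14.6%, against 2.32%). Their median change was -0.30, and -0.24 with the trend removed, where only BOP1 was still called. Without control replicate 3 or without the C321fs line 11 were common, and by upper-quartile scaling and total counts 4 and 2 were. Over all genes the common down-regulated genes were 408, 628, 111 and 51 in these settings, in place of 343. BOP1 (chr8:144262046-144291438, minus strand), which joins PES1 and WDR12 in a complex for the large subunit, had 218, 279 and 247 CPM in the control and from 114 to 177 CPM with a median of 128 in the mutants. Its change was -0.89 ± 0.07 (SE, edgeR adjusted p = 4.93e-08) and -0.5855 with the trend removed, only just past the fold change limit. RRP12 and the helicase DDX56 changed by -0.72 and -0.63 and were not called with the trend removed (-0.48 and -0.41).

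MYC (chr8:127736069-127741434, plus strand), a transcription factor that drives ribosome production and cell growth, was a common down-regulated gene in both fits. It was read at 123, 138 and 124 CPM in the control and from 61.7 to 82.5 CPM with a median of 67.4 in the mutants. The change was -0.87 ± 0.04 (SE), a 1.82-fold decrease (edgeR adjusted p = 9.37e-10), with Splice del -1.02, C321fs -0.66, A333fs -0.92. In the fit without the trend it was -0.73. MYC belongs to the list of FGF receptor and MAPK output genes, of which 5 of 26 (19.2%, against 3.18%) were called down (MYC, EFNA5, IER3, DUSP4 and EPHA4) and 0 up. The first 3 of these were common, and IER3 was not called with the trend removed (-0.36).

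Of 40 tested replication genes 5 were called down (12.5%, against 3.18% of all genes), all common (MCM2, MCM5, CDT1, POLD1 and E2F1), and 0 up. All 9 mutant libraries lay below the control in 21 of the 40 (52.5%, against 19.3%). That share was also high in the lists of ribosome biogenesis (58.3%), ATF4 and amino acid genes (60.6%) and oxidative phosphorylation (50%). It was 0 in the interferon and KRAB zinc finger lists. MCM2, a subunit of the replicative helicase, had 454, 519 and 443 CPM in the control and from 277 to 311 CPM with a median of 298 in the mutants. Its change was -0.69 ± 0.05 (SE, edgeR adjusted p = 3.16e-08) and -0.48 with the trend removed, under the limit. No gene of this list was called with the trend removed, although the list's median went from -0.20 to -0.25. Without control replicate 2 the calls were 2, without the A333fs line 3, by upper-quartile scaling 1 and by total counts 0. Over all genes the calls down were then 283, 388, 189 and 108, in place of 470. Of 37 mitosis genes 2 were called down (5.41%, near the 3.18% of all genes), the kinases PLK1 (-0.68) and AURKB (-0.59), and neither was called with the trend removed. The mitosis list has low GC (median 42.6%), and its median went from -0.02 to -0.22. Neither gene was called by upper-quartile scaling or total counts, which gave medians of 0.07 and 0.15.

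Luminal genes did not move one way. Of 29 tested genes of luminal identity and the steroid receptors, 3 were called up (10.3%, against 5.1%; AGR2, AGR3 and EHF, all common) and 5 down (17.2%, against 3.18%), of which KRT8, KRT18 and KRT19 were common. The median was -0.06, and -0.05 with the trend removed, but 0.03 and 0.10 by upper-quartile scaling and total counts, where 1 gene was called down. Over all genes these scalings called 189 and 108 down, in place of 470. AGR2 (chr7:16792640-16805114, minus strand), a disulfide isomerase of the endoplasmic reticulum in secretory epithelium, was read at 952, 1080.1 and 1033 CPM in the control and from 1426 to 2056 CPM with a median of 1869 in the mutants. Its change was 0.79 ± 0.05 (SE, edgeR adjusted p = 1.13e-08) and 0.59 with the trend removed, which kept it common.

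KRT8 (chr12:52897187-52949866, minus strand) and KRT18 (chr12:52948871-52952901, plus strand) encode the paired keratins of simple epithelium. KRT8 was read at 6957, 8479 and 7118 CPM in the control and from 3566 to 5664 CPM with a median of 4067 in the mutants, a change of -0.78 ± 0.06 (SE, edgeR adjusted p = 8.75e-08), and KRT18 changed by -0.64 ± 0.05 (SE, adjusted p = 1.44e-07). Neither was called with the trend removed (-0.54 and -0.37). The annotated exons of these neighbours overlap on opposite strands and both have pseudogenes, so their counts are uncertain.

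Among 24 estrogen receptor target genes 3 were called up (12.5%, against 5.1%) and 7 down (29.2%, against 3.18%), with a median of -0.09. By total counts the median was 0.07, and 5 were called up and 3 down. Over all genes total counts called 1598 up and 108 down. NRIP1 and MYBL1 were common up, and SLC7A5, RARA, FKBP4 and IGFBP4 common down. FKBP4 (chr12:2794942-2805421, plus strand), a cochaperone of HSP90 and the steroid receptors, was alone in being common in both fits. It had 1844, 2029 and 1761 CPM in the control and from 1147 to 1272 CPM with a median of 1230.2 in the mutants, a change of -0.63 ± 0.05 (SE, edgeR adjusted p = 4.32e-08) with a range of 0.09 among the lines. With the trend removed FKBP4 stood at -0.589, just past the limit. SLC7A5, a transporter of large neutral amino acids, changed by -0.85 ± 0.04 (SE, adjusted p = 1.75e-09). After removal of the trend it stood at -0.58, just under the limit.

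SLC7A5 also belongs to the list of ATF4 and amino acid genes, where 4 of 33 were called down (12.1%, against 3.18%) and 3 up (9.09%, against 5.1%). PHGDH and SHMT2, enzymes of serine and one-carbon metabolism, were common down at -0.68 and -0.75 and lost their calls with the trend removed (-0.45 and -0.55). DDIT4, an inhibitor of mTORC1, was common up at 0.81 and, with exons of 58% GC, reached 1.05 with the trend removed. The list's median was -0.33 and then -0.22.

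Of 32 cholesterol and fatty acid genes 2 were called down (FASN and PMVK, 6.25% against 3.18%) and 1 up (STARD4, 3.12% against 5.1%), all common. These shares are near those of all genes. FASN (chr17:82078338-82098230, minus strand), the fatty acid synthase, was read at 2316, 2585 and 2522 CPM in the control and from 1077 to 1686 CPM with a median of 1274 in the mutants. Its change was -0.91 ± 0.07 (SE, edgeR adjusted p = 4.89e-08), and -0.57 with the trend removed. That value misses the fold change limit, at an adjusted p of 5.59e-08. STARD4, a carrier of cholesterol between membranes, went from 0.61 to 0.24, and its exons are low in GC (34.8%). No gene of this list was called with the trend removed.

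EMT is the shift of epithelial cells towards a mesenchymal form. Of 19 tested mesenchymal genes 9 were called up (47.4%, against 5.1%) and 3 down (15.8%, against 3.18%). The list has 36 genes in the counts. The expression filter was applied by line, so a gene low in the control could pass it through a mutant line that raised it. Such a gene could only be called up, so the filter can raise that share. MEF2C and CYR61 were the only 2 that were common. The other calls included SPARC (Splice del 4.87, C321fs 2.79, A333fs 5.58) and VIM (Splice del 1.46, C321fs 0.64, A333fs 1.6). CYR61 (chr1:85580761-85583965, plus strand), a matricellular protein, had 38.6, 45.2 and 40.3 CPM in the control and from 23.5 to 29.7 CPM with a median of 25.6 in the mutants (-0.64 ± 0.05 (SE), edgeR adjusted p = 1.30e-07), and was common in both fits. MEF2C, a transcription factor of muscle and other lineages, rose from a mean of 0.2 ± 0.0608 CPM to 0.797 ± 0.241 (SD, n = 3 and 9) and overlaps the exons of MEF2C-AS1. Without control replicate 2 the list had 7 calls up and 1 down. Over all genes there were then 594 calls up and 283 down, in place of 754 and 470.

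Of 40 tested genes of TGF-beta, activin and BMP signaling 3 were called up (7.50%, against 5.1%) and 4 down (10.0%, against 3.18%). SMAD3 and the BMP receptor BMPR1B were common up in both fits, and MSX2 was common down in both. FSTL3, which binds activin, was common down (-0.71) with a range among lines just inside the limit (Splice del -0.94, C321fs -0.36, A333fs -0.84) and was not called with the trend removed (-0.42).

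Of 59 tested KRAB zinc finger genes, which repress transposable elements, 6 were called up (10.2%, against 5.1%) and 0 down, and 5 were common (8.47%, against 2.45% of all genes). Their exons are low in GC (median 39.9%), and the list's median of 0.39 became 0.08 with the trend removed. ZNF676 was common in both fits (0.95 and 0.61), and ZNF763 and ZNF738 were not called with the trend removed. Of 62 oxidative phosphorylation genes 1 was called down (1.61%, against 3.18%) and 0 up. It was CYC1 of the cytochrome bc1 complex (-0.63 and -0.32), and the list's median was -0.29 and then -0.16. Among 39 junction genes JUP and SCRIB were common down at -0.59 and -0.62, and neither was called with the trend removed. In all, 2 junction genes were called up (5.13%, against 5.1%) and 3 down (7.69%, against 3.18%). The list's median of -0.07 was 0.02 and 0.09 by the other scalings. Of 23 cytosolic chaperone genes 1 was called up (4.35%, against 5.1%) and 2 down (8.70%, against 3.18%). CRYAB was common up (0.76, edgeR adjusted p = 0.00495) and FKBP4 common down. The level of CRYAB was low, at 0.543, 0.577 and 0.625 CPM in the control and from 0.791 to 1.34 CPM in the mutants. Among 29 Notch genes 1 was called up (3.45%, against 5.1%) and 1 down (3.45%, against 3.18%), and 0 were common. The 23 chaperones of the endoplasmic reticulum gave 0 calls in edgeR, in both fits and in DESeq2. Of 8 tested secretory genes 4 were called up (50%, against 5.1%) and 0 down, and 0 were common. Those called were PIP, AZGP1, CD36 and SERPINA3. The secretory list has 25 genes in the counts. A gene low in the control could pass the filter through a mutant line that raised it, so the filter can raise the share called up.

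**Figure D5:**
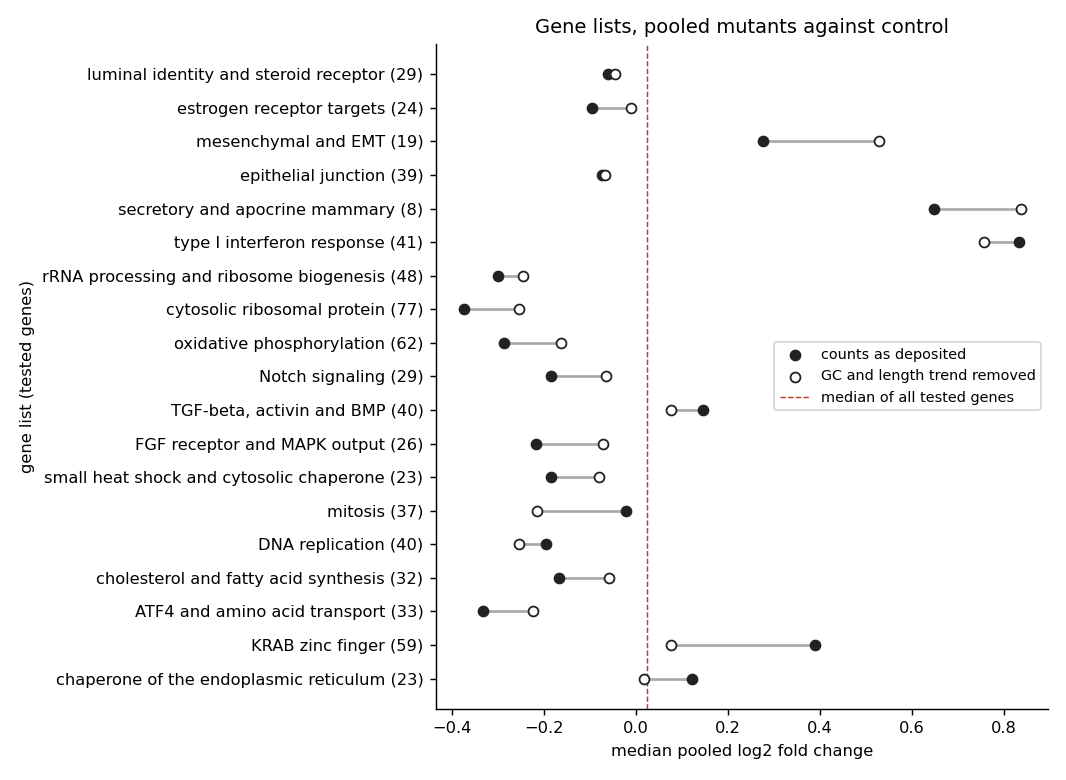
Median pooled log2 fold change (x axis) of 19 gene lists (y axis, with the number of tested genes), from the deposited counts (filled) and after removal of the trend (open). The interferon list stands at 0.83 and 0.76, the ribosomal protein list at -0.37 and -0.25, and the KRAB zinc finger list moves from 0.39 to 0.08. The dashed line is the median of all tested genes at 0.02.

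The 10 fibroblast markers summed to 50.5 to 57.6 CPM in the control and 42.0 to 59.4 in the mutants, scaled by library totals alone. COL1A1 made up most of this sum, with 48.2 to 59.8 TMM-scaled CPM in the control and 28.0 to 48.0 in the mutants, and FAP and POSTN were at 0 in every library. Of the 4 tested fibroblast markers DCN and LUM were called up, reaching 13.4 and 5.61 CPM in single mutant libraries, and COL3A1 was called down. The 10 leukocyte markers summed to 5.05 to 6.37 CPM in the control and 6.29 to 9.65 in the mutants. PTPRC, CD3D, CD2 and MS4A1 were at 0 in every library, and CD14 and ITGAM of the 4 tested were called up. The endothelial markers, with TEK and EMCN at 0, summed to 1.90 to 2.41 CPM and 1.39 to 2.89, and 0 of 1 tested was called. Basal and myoepithelial markers summed to 27.4 to 28.2 CPM and 25.9 to 45.5, with ACTA2 at up to 21.0 and EGFR at up to 15.0 TMM-scaled CPM. Of the 6 tested KRT14 was called up, at 0.616 CPM or less. None of these 40 markers was a common gene. Of all tested genes 5.1% were called up and 3.18% down.

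Over the 363 up-regulated genes the lines had median changes of 0.83 (Splice del), 0.75 (C321fs) and 0.74 (A333fs). Over the 343 down-regulated genes they were -0.71, -0.58 and -0.70. Over the genes common in both fits the medians were 1.03, 0.96 and 0.92 for the 129 up-regulated genes and -0.88, -0.88 and -0.83 for the 34 down-regulated ones. The F-test among the 3 lines had an adjusted p below 0.01 in 2884 genes (19.5%), in 47 of the 363 and in 68 of the 343. The limit on the range lowers these counts by its construction. Of the genes near the limit, FSTL3 and SEMA3A had ranges of 0.58 and 0.58 on the log2 scale. KCNK2 and OASL lay just outside at 0.59 and 0.59. KCNK2, a potassium channel, was above the control in all 9 mutant libraries, with Splice del 0.28, C321fs 0.79, A333fs 0.87.

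Of 113 tested small nucleolar RNAs 14 (12.4%) were common up and 0 common down, against 2.17% and 2.52% of protein-coding genes. After removal of the trend 5 of the 14 were still common. Small nucleolar RNAs have a median length of 91 bases and are mostly cut from introns of other genes. Of 824 long noncoding RNAs 33 (4%) were common up and 4 common down, and 17 and 1 of these were common in both fits. Chromosome 19 is rich in GC (median 59.4%) and had 85 common down-regulated genes, 7.95% of its tested genes, of which 4 were common in both fits. Its median change was -0.23, and -0.03 with the trend removed.

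Promoters of 300 bases (250 before to 50 after the RefSeq start) were matched for 254 of the 363 up-regulated and 263 of the 343 down-regulated genes. A full GATA motif was found in 22.0% of the former and 9.51% of the latter, against 15.1% of 11336 promoters of tested genes and 25.9% of all 27305 promoters. The median GC content of these promoters was 61.3%, 67.3%, 65% and 58%, so the share with the AT-rich motif fell as promoter GC rose, and the part of GC in it was not tested. The shorter AGAT, which lies within AGATAA and AGATAG, was in 66.1% and 53.2% against 59.0% of tested genes. The interferon element core was in 9.06% of up-regulated and 1.90% of down-regulated promoters, against 2.84% of tested genes. Of the 7 common interferon genes with a promoter 6 held it, and of the 32 tested interferon genes with one 21 did. The full GATA motif was in 3 of these 7 (42.9%) and 13 of these 32 (40.6%). The estrogen response element, searched as GGTCA and TGACC with 3 bases between them, was in 0 of the 517 promoters of common genes and in 2 of the 11336. A match is a run of letters and was not tested for binding.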

How the data were processed

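Gene counts of the 12 RNA-seq libraries (1 control and 3 mutant lines, 3 libraries each) were used. The authors trimmed the reads, aligned them to hg38 and used featureCounts 1.6.4, without a strand option, on properly paired fragments. The deposited values are whole, unnormalized counts. The sources name both HISAT2 and a STAR folder, so the aligner is not settled. The ChIP-seq samples were not analysed here. Genes were filtered with filterByExpr (14789 of 26485 kept), scaled by TMM and tested by quasi-likelihood in edgeR 4.0.16 (R 4.3.3), where each line had 1 coefficient. The GC fit added per-library loess trends (span 0.3) over exon GC content and exon length as offsets. Log2 CPM used a prior count of 2. On simulated counts of 14425 genes, 198 of 200 genes changed 2-fold in all mutants were recovered as common with 0 false calls. With a GC trend added (14413 genes) there were 71 false common genes, and 1 after its removal. Recovery of changes smaller than 2-fold was not tested. The common genes had smaller median changes, 0.74 upwards and 0.65 in size downwards on the log2 scale. Replicate numbers did not pair the libraries (mean residual correlation -0.0092, 18 pairs).

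The members and the 23 gene lists were chosen with earlier results of these data known. Named genes were GATA3, the 10 largest common changes each way at 1 CPM or more in either group's mean, up to 3 common genes per list, the 3 best each way within 2 points of the median GC, and the 2 genes on each side of the range limit. Some items are not reported here. Genes named beside a count of list members were chosen after their values were seen. Sequences are from RefSeq GRCh38.p14. Promoters were matched by symbol or synonym and kept where they lay on the chromosome and strand of the gene and at most 500000 bases from it (118 of 11454 matches were dropped).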

Additional observations from a re-analysis of the deposited data

Results flagged for a closer look

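Among the 62 named genes, 4 had a mutant library far from the other 8 by Dixon's test. The gap divided by the range of the 9 libraries was 0.528 for RNF223, 0.715 for CYC1 and 0.516 for PMVK, each in C321fs replicate 1, and 0.501 for OASL in C321fs replicate 3. Chance flags about 1 in 20 such groups, and 4 of 62 is near that rate. The test treats the 9 libraries as a single group although they came from 3 lines. The flags in C321fs replicate 1 share that library and are not separate events. In CYC1 the C321fs replicate 1 library held 602 CPM, the highest mutant value, against 632 to 751 CPM in the control.

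The size of the change differed among the 3 mutant lines in 18 named genes by edgeR's F-test, although the range limit kept all but KCNK2 in the common response. Adjusted p-values were 0.00112 for TENM3, 4.04e-05 for AGR2, 0.000293 for KRT8, 0.00218 for KRT18, 0.000567 for SLC7A5 and 0.00378 for RARA. For IFIT5, BOP1, RPSA, RPS3 and SMAD3 they were 0.00533, 0.00413, 0.00045, 0.00516 and 0.00196. FSTL3, MYC, AURKB and CDT1 had 0.00109, 0.000281, 0.000915 and 0.00183. For SCUBE2, MATN2 and KCNK2 the values were 0.000685, 0.00268 and 2.75e-06. In KRT8 and RPSA the decrease was largest in Splice del and smallest in A333fs (KRT8: Splice del -1.02, C321fs -0.84, A333fs -0.49, RPSA: Splice del -0.86, C321fs -0.61, A333fs -0.43). In AGR2 the increase was smallest in C321fs (Splice del 0.99, C321fs 0.52, A333fs 0.87).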

How the results depend on the processing

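Of 2663 values of the 62 named genes under the alternatives, 2098 kept their direction and their side of the threshold, 564 kept the direction and lost the call, 1 gained it and 0 reversed. With the GC and length trend removed 26 of the 62 lost the call. The GC slope difference stayed between -0.263 and -0.223 with each library left out in turn (largest p = 0.0364, exact permutation test, n = 2 against 9) and was -0.251 with a prior count of 0.5 and with genes of at least 10 counts in every library.

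Scaling moved the counts: the median change of all genes was 0.12 by upper-quartile scaling and 0.19 by total counts, against 0.02. Upper-quartile scaling gave 189 pooled down, 635 common up and 111 common down, and 85.6% of calls were up against 61.6%. Total counts gave 1598 and 108 pooled and 1010 and 51 common (93.7% up). After removal of the trend over GC and length the counts were 127 pooled down, 219 common up and 60 common down (82.4% up). The replicate block with that trend removed gave 128, 217 and 59, and the replicate block alone gave 734 and 464 pooled and 353 and 346 common.

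Counts summed per line, with 1 control sum assumed to vary like the 3 mutant sums, gave 0 in all 4 counts (edgeR, with 632 genes up and 414 down at an unadjusted p under 0.05), where DESeq2 on libraries called 711 and 482 pooled and 338 and 361 common. The test against a 1.5-fold change gave 138 and 40 pooled and 26 and 17 common, and no minimum fold change gave 3335 and 3970 pooled and 2021 and 2721 common. A tighter limit on the range left 208 common up, and no limit left 556. Without the C321fs line the common genes were 630 and 628, and without A333fs 589 were up. Genes that differed among the mutants were 2884, but 1772 without Splice del and 903 without A333fs.

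With each library left out the ranges were 594 to 767 pooled up, 283 to 656 pooled down, 303 to 440 common up, 194 to 551 common down and 1889 to 3220 differing among the mutants. With the trend removed as well, an alternative chosen after seeing the data, they were 478 to 604, 105 to 138, 194 to 237, 52 to 69 and 2887 to 4082. The cause of these differences was not tested. Genes near 1 CPM rest on few counts per library.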
